A study of Mus musculus with 194 samples.

Results

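Voltage-gated calcium, voltage-gated sodium and HCN channel genes were followed in 5 brain structures of mice given cocaine. Genes were taken by symbol (Cacna, Cacnb, Cacng, Scn and Hcn families) with a mean level of at least 5 CPM (counts scaled to a common library total) in at least 1 structure, which kept 36 of 44 matching symbols among 19363 genes in the table. The 8 symbols below that level were Cacna1f, Cacna1s, Cacna2d4, Cacng1, Cacng6, Scn4a, Scn10a and Scn11a. Of the 36 genes, 32 reached 5 CPM in all 5 structures, and none was chosen by how it responded to cocaine.

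These channels turn changes of membrane voltage into ion flow. A calcium channel has a pore (Cacna1 genes) with α2δ (Cacna2d) and β (Cacnb) subunits that bring it to the membrane and set its gating, whereas most brain γ genes (Cacng) are known as TARPs, which carry AMPA-type glutamate receptors to synapses. Sodium channel pores (α subunits) start and carry the action potential, with β subunits that tune their speed and resurgent current. HCN channels pass a depolarizing current upon hyperpolarization and are modulated by cyclic nucleotides. In the striatum, the spiny projection neurons (SPNs) rest at very negative potentials, and L-type calcium channels of these cells are a known route from dopamine and glutamate input to transcription.

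The animals were male C57BL/6OLAHSD mice aged 6 to 7 weeks at the start, habituated to saline injections, and every cocaine dose was 20 mg/kg given intraperitoneally. Acute mice got a first dose, repeated mice the last of 5 daily doses, and challenge mice a dose after 21 days of abstinence from repeated cocaine. Tissue was taken 1, 2 or 4 hr after that dose, and the 0 hr groups were cocaine-naive mice, mice 24 hr after the fourth dose, and abstinent mice, respectively. These 0 hr mice came from the home cage without treatment that day. In contrasts with 0 hr, injection and exposure to the test arena therefore cannot be told apart from cocaine. 3′-RNA-seq profiled the limbic cortex (LCtx, medial prefrontal and cingulate) of 28 mice, the nucleus accumbens (NAc) of 36, the dorsal striatum (DS) of 48, the amygdala (Amy) of 31 and the lateral hypothalamus (LH) of 23. Each experience came from its own cohort of animals (with a second repeated cohort in the DS), so cohort and experience cannot be told apart. By the schedule, challenge mice were also older at tissue collection, and age and experience cannot be told apart either. By the animal numbers of the labels, 38 of 48 animals gave tissue from more than 1 structure.

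The libraries held 1193306 to 10367769 counts, in 9 sequencing runs, and 28 samples were sequenced in 2 runs. Levels below use 1 library per mouse. The labelled structures were checked against marker genes of their cells. The summed level of 9 SPN markers had a median of 14673 CPM in the DS and 8835 CPM in the NAc against 687 to 1165 CPM elsewhere, 5 cortical excitatory markers had 1577 CPM in the LCtx and 23.4 CPM in the DS, and 4 hypothalamic and subcortical markers had 13393 CPM in the LH. In bulk tissue, fewer cells of a type and less RNA per cell cannot be told apart.

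The DS had the highest mean level of 15 of the 36 channel genes, the LCtx of 7, the Amy of 6, the LH of 6 and the NAc of 2. The LH was lowest for 16 genes, the LCtx and the DS for 7 each, the NAc for 5 and the Amy for 1. The DS shared no sequencing run with another structure, so these orders are descriptive, and the shares over all genes are not given. For 2 of the 15 genes highest in the DS, every DS library lay above every other library. Some gaps to the next structure were small, with ratios of 1.016 for Scn8a, 1.055 for Cacnb1, 1.054 for Cacng3 and 1.028 for Cacng7. With TMM scaling (factors that balance library composition) in place of library totals, 35 genes kept their highest and 36 their lowest structure, and over all libraries in place of 1 per mouse 34 kept their highest, with Cacna1a and Cacna2d2 moving to the DS.

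**Figure D1:**
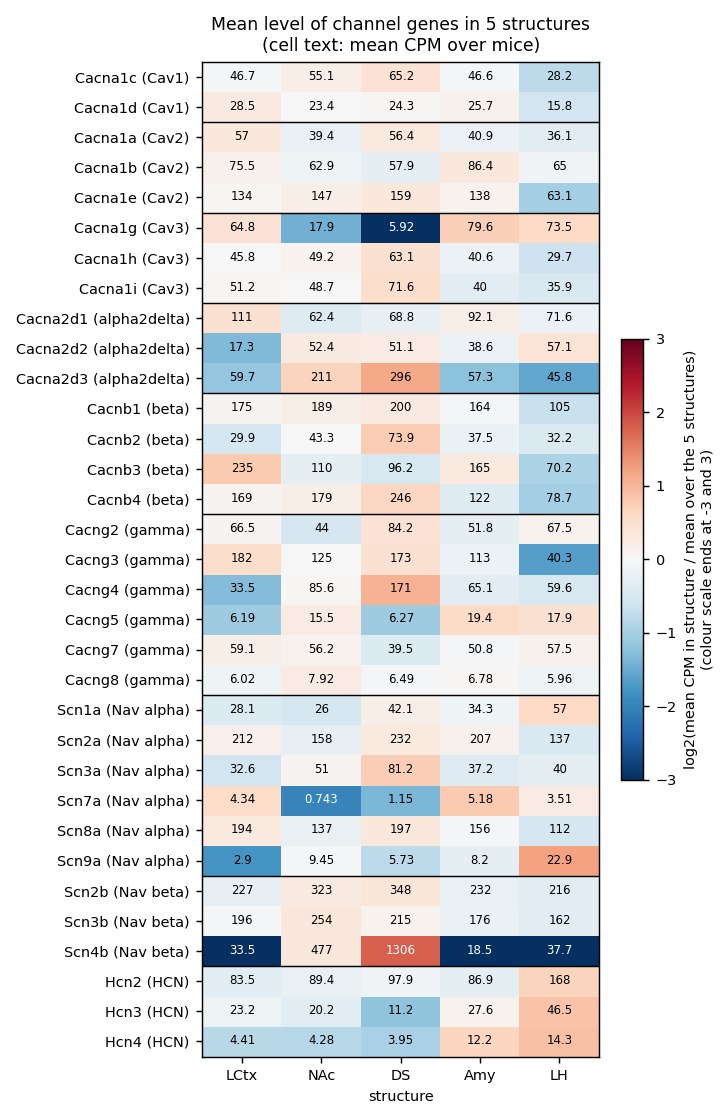
Mean CPM over mice of the channel genes (rows, grouped by subfamily) in the 5 structures (columns). Color is the log2 ratio of that mean to the gene's mean over the structures, and the most uneven rows are Scn4b (1306 CPM in the DS, 18.5 CPM in the Amy) and Cacna1g.

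Among pore-forming calcium channel genes, the L-type Cacna1c was highest in the DS (65.2 ± 8.82 CPM, SD, n = 48) and lowest in the LH (28.2 ± 3.99, n = 23), while L-type Cacna1d spanned a narrower range, from 28.5 CPM in the LCtx to 15.8 CPM in the LH. The presynaptic P/Q-type Cacna1a was at 57.0 ± 10.7 CPM in the LCtx and 56.4 ± 14.6 CPM in the DS, with ranges that overlapped and an order that changed under TMM scaling. Its lowest mean was in the LH (36.1 CPM). The N-type Cacna1b ran from 86.4 CPM in the Amy to 57.9 CPM in the DS. The R-type Cacna1e was highest in the DS (159 CPM) and lowest in the LH (63.1 ± 7.94 CPM), where every library lay below every library of the other structures.

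The T-type genes, whose channels open near rest and support bursting, did not share a pattern. Cacna1g was at 79.6 ± 13.8 CPM in the Amy, 73.5 ± 6.54 in the LH, 64.8 ± 15.1 in the LCtx, 17.9 ± 4.96 in the NAc and 5.92 ± 1.85 in the DS. The Amy and LH ranges of Cacna1g overlapped (55.2 to 109 and 60.7 to 91.3 CPM), and its DS libraries (2.32 to 10.7 CPM) lay below all of the Amy, LH and LCtx libraries. The other T-type genes went the other way, with Cacna1h at 63.1 CPM and Cacna1i at 71.6 CPM in the DS and at 29.7 and 35.9 CPM in the LH, their lowest structure.

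Auxiliary subunit genes differed in the same mixed manner. Cacna2d3, an α2δ gene, had 296 ± 24.7 CPM in the DS and 211 ± 27.1 CPM in the NAc against 45.8 to 59.7 CPM in the other 3 structures. Cacna2d1, the α2δ subunit bound by gabapentinoids, was highest in the LCtx (111 ± 11.4 CPM, range 93.9 to 141) and lowest in the NAc (62.4 CPM). Cacna2d2 had 57.1 ± 6.35 CPM in the LH, its highest mean, beside 52.4 ± 10.8 for the NAc and 51.1 ± 10.02 for the DS, with ranges that overlapped. Cacna2d2 was lowest in the LCtx (17.3 CPM, where its highest library reached 77.2 CPM around a median of 14.5 CPM). Of the β genes, Cacnb3 was highest in the LCtx (235 ± 29.9 CPM, range 148 to 297) and lowest in the LH (70.2 ± 7.69 CPM, range 57.7 to 88.6). Cacnb1, Cacnb2 and Cacnb4 were highest in the DS (200, 73.9 and 246 CPM), with Cacnb1 and Cacnb4 lowest in the LH (105 and 78.7 CPM) and Cacnb2 lowest in the LCtx (29.9 CPM).

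The TARP gene Cacng4 was at 171 ± 20.8 CPM in the DS (134 to 219 CPM), above every library of any other structure, with 85.6 CPM for the NAc (53.2 to 117 CPM) and its lowest mean, 33.5 CPM, for the LCtx. Cacng2, which encodes stargazin, was highest in the DS (84.2 CPM) and lowest in the NAc (44 CPM), and Cacng3 was highest in the LCtx (182 CPM) and lowest in the LH (40.3 CPM), below every other library. Cacng5 ran from 19.4 CPM in the Amy to 6.19 CPM in the LCtx and Cacng7 from 59.1 CPM in the LCtx to 39.5 CPM in the DS. Cacng8 was low throughout, with 7.92 ± 2.11 CPM in the NAc (3.79 to 11.5 CPM) and 5.96 ± 1.91 CPM in the LH (2.89 to 9.58 CPM), ranges that overlap almost wholly. Cacng4 and Cacng5 are neighbors on chromosome 11 (GRCm38, 107732357 to 107794557 and 107874605 to 107915055), and their highest structures differed.

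Scn2a and Scn8a, the main pores of forebrain axons, were lowest in the LH (137 and 112 CPM). Scn2a had 232 ± 43.7 CPM in the DS and 212 ± 34.97 CPM in the LCtx, and Scn8a 197 ± 23.2 and 193.9 ± 34.5 CPM. The DS mean was the higher in both, but the ranges of each pair overlapped. Scn3a had 81.2 CPM in the DS and 32.6 CPM in the LCtx. Scn1a, prominent in fast-spiking interneurons, was highest in the LH (57.0 CPM) and lowest in the NAc (26.0 CPM).

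Other sodium channel pores had larger contrasts at low levels. Scn9a, known from nociceptive neurons, had 22.9 ± 4.03 CPM in the LH (lowest 16.04, median 22.0, highest 29.99 CPM) against 9.45 CPM in the NAc, the next structure (1.94, 9.85 and 18.2 CPM), and 2.90 CPM in the LCtx, its lowest. Scn7a, a sodium-sensing relative, had 5.18 ± 1.58 CPM in the Amy (2.13, 4.74 and 8.97 CPM) and 0.743 CPM in the NAc, where 5 of 36 libraries held no count. The Amy range of Scn7a overlapped that of the next structure, the LCtx (1.55 to 9.44 CPM). Scn3a, Scn2a, Scn1a, Scn9a and Scn7a lie in that order on chromosome 2 (65457118 to 66784914), yet were highest in the DS, the DS, the LH, the LH and the Amy.

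Among the β subunit genes, Scn4b had the widest range of all 36 genes. Its product is linked to resurgent sodium current and is a known SPN-enriched protein. Its lowest, median and highest levels were 861, 1377 and 1577 CPM in the DS, 337, 479 and 609 CPM in the NAc, 25.04, 36.6 and 53.9 CPM in the LH, 9.78, 34.2 and 50.7 CPM in the LCtx, and 6.84, 16.4 and 37.4 CPM in the Amy. No DS library of Scn4b overlapped an NAc library, no NAc library overlapped the other 3 structures, and the DS mean was 70.7 times the Amy mean. Its neighbor Scn2b, whose start lies upstream on the same strand of chromosome 9 (45117782 to 45130070, with Scn4b at 45138395 to 45154152), had 348 ± 32.7 CPM in the DS and 216 ± 21.4 CPM in the LH, a ratio of 1.61. Scn3b was highest in the NAc (254 ± 18.5 CPM, 217, 254 and 296 CPM) and lowest in the LH (162 CPM).

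The start regions of these neighboring β genes (RefSeq, GRCm38.p6, 250 bases before to 50 bases after the start, plus strand) are shown because their levels diverge so far between structures. Neither holds a CRE (TGACGTCA), its TGACG core, an AP-1 match (TGANTCA), an EGR match (GCGNGGGCG) or a TATA box (TATAAA) on either strand, letters that 1.79%, 20.8%, 7.81%, 5.55% and 13.6% of 32851 such windows hold. The TGACG core is part of the CRE, so those shares overlap. In lower case, with no letter in capitals because no motif matched, they read as follows.
Scn4b, chr9:45138374-45138673: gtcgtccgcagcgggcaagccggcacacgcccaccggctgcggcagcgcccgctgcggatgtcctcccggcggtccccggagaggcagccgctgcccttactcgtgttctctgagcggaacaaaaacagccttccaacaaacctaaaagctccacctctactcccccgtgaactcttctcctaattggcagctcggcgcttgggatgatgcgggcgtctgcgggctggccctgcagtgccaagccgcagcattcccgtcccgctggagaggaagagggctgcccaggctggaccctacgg
Scn2b, chr9:45117626-45117925: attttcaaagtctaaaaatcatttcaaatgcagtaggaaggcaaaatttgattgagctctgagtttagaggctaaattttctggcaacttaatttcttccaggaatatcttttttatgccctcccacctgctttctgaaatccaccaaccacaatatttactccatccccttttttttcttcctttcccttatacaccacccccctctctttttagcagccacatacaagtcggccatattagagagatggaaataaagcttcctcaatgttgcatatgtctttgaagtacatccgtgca
The Scn4b window was 66.3% G and C and the Scn2b window 38.3%. Of the 36 genes, 26 had such a window, 37 in all, and 0 of the 37 held a full CRE.

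Among HCN genes, Hcn2, Hcn3 and Hcn4 were highest in the LH, at 168 ± 36.9, 46.5 ± 4.52 and 14.3 ± 2.25 CPM. Hcn2 ranged from 95.5 to 222.5 CPM around a median of 183 CPM in the LH and overlapped the DS (64.3 to 146 CPM, mean 97.9), with its lowest mean in the LCtx (83.5 CPM). Hcn3 and Hcn4 were lowest in the DS, at 11.2 and 3.95 CPM.

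**Figure D2:**
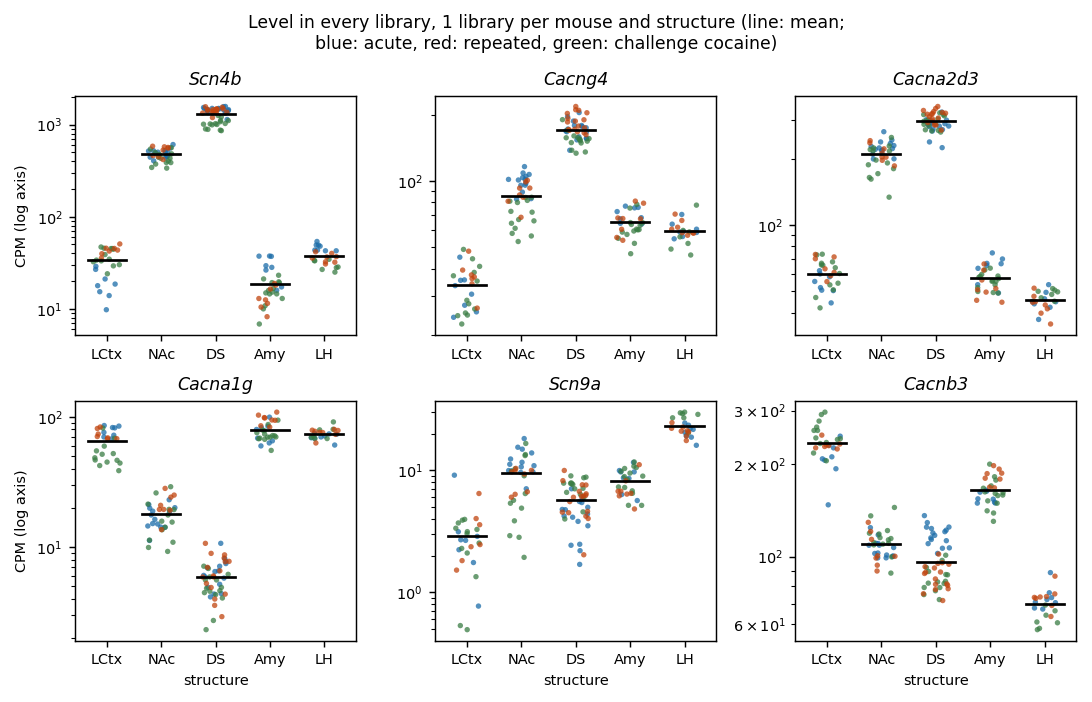
Level in each library (CPM, log axis, 1 point per mouse and structure, color for experience, line for the mean) of 6 genes. Scn4b and Cacng4 in the DS lie above every library of another structure, while Cacna1g is lowest in the DS (5.92 CPM) and Scn9a highest in the LH (22.9 CPM).

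Structures were then tested where they shared runs. The challenge libraries of the LCtx, NAc, Amy and LH (13, 14, 15 and 7 libraries) came from 15 animals, each of which gave more than 1 structure. Within them each structure was compared with the mean of the other 3 by edgeR's quasi-likelihood test, with Benjamini-Hochberg adjustment over all genes, and called at an adjusted p under 0.05 and a log2 fold change of at least 1 in size. In the LCtx, 5 of 36 genes passed (7.96% of all genes), among them Cacnb3 higher (log2 fold change 1.28) and Cacna2d2 (−1.53), Cacng5 (−1.40) and Scn9a (−2.12) lower. In the NAc, 5 passed (8.0% of all genes), Scn4b (4.12) and Cacna2d3 (1.87) higher and Cacna1g (−1.92) lower among them. In the Amy, 3 passed (2.9% of all genes), among them Scn4b (−2.41) lower. In the LH, 9 of 36 passed (12.4% of all genes). Of these, Scn9a (2.26) and Scn1a (1.2) were higher there, and Cacng3 (−1.70), Cacnb3 (−1.45), Cacna1e (−1.23), Scn4b (−1.12) and Cacnb1 (−1.02) lower. The Scn4b call is against a mean that includes the NAc (477 CPM over all mice). Its LH level (37.7 CPM) lay above those of the LCtx (33.5 CPM) and Amy (18.5 CPM). The largest adjusted p among the calls named, that of Scn4b in the LH, was 1.74e-15. These counts include genes that met the 5 CPM limit in only some structures, so nothing is read from them against the share of all genes. Scn7a met it in the Amy alone and Hcn4 in the Amy and LH, and their differences, 1.09 for Scn7a in the Amy and −2.46 in the NAc, and 1.33 for Hcn4 in the LH and −1.20 in the NAc, are given as a description. All calls also passed with the animal as a factor, but without the mice of replicate number 2 Cacnb1 in the LH (−0.98) and Scn7a in the Amy (0.95) fell short of the fold.

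Pairs of structures were also compared within a single run. Amy against LH in the run that held both (16 libraries each, acute and repeated) called 5 of 36 genes (9.15% of all genes), with Cacng3 (1.47), Cacnb3 (1.21) and Cacna1e (1.10) higher in the Amy and Scn9a (−1.40) and Scn4b (−1.04) lower. LCtx against NAc after repeated cocaine (7 and 8 mice) called 9 of 35 (9.78% of all genes), among them Cacna1g (1.81) and Cacnb3 (1.14) higher in the LCtx, and Scn4b (−3.55), Cacna2d2 (−1.75), Cacna2d3 (−1.68), Cacng5 (−1.51), Scn9a (−1.41) and Cacng4 (−1.24) lower. All 16 animals of the first pair and 7 of 8 of the second gave both structures, and all calls of both pairs also passed with the animal as a factor. Scn4b in the first pair fell short of the fold without acute Amy 2 hr replicate 2 (−0.99) or repeated Amy 0 hr replicate 1 (−0.98), and Cacnb3 in the second without replicate number 1 (0.93). Scn7a was too low to test in the second pair.

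Levels over the hours after cocaine were compared with 0 hr within each experience, in 1 test per structure over all times and experiences (adjusted p under 0.05 and a fold over 1.2 at some time). These fits held no term for sequencing run or cohort. In the LCtx 0 of 36 genes passed (0.216% of all genes), in the NAc 0 of 35 (0.17%), in the Amy 0 of 36 (0.233%) and in the LH 0 of 36 (0.106%), by edgeR. At an unadjusted p under 0.05 there were 5, 6, 5 and 1, beside 4.16%, 6.48%, 4.69% and 5.53% of all genes. In the DS 1 of 35 passed, Cacnb2, where 1.99% of all genes did. Tested by experience in the DS, 1 gene passed after acute cocaine (Cacnb2, 2.62% of all genes), 0 after repeated (0.48%) and 0 after challenge (0.673%), with 7, 2 and 1 at an unadjusted p under 0.05, beside 13.9%, 6.81% and 6.49% of all genes. A test of whether the DS time course differed between experiences called 0 of 35 genes (0.031% of all genes). At an unadjusted p under 0.05 there were 0, beside 5.29% of all genes. Scn7a was too low to test in the DS and NAc.

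Cacnb2 encodes a β subunit that carries calcium channels to the membrane and slows their inactivation. In acute mice it had 70.0, 72.8, 75.2 and 95.7 CPM at 0 hr, 57.3, 60.8, 61.6 and 75.2 at 1 hr, 63.7, 63.9, 65.5 and 68.8 at 2 hr, and 73.7, 95.0, 97.2 and 118 at 4 hr. In repeated mice the values were 75.1, 76.0, 85.2 and 101 CPM at 0 hr, 59.1, 63.5, 69.9 and 77.1 at 1 hr, 64.5, 66.8, 81.4, 85.7 and 87.5 at 2 hr, and 86.1, 94.7, 97.1 and 99.2 at 4 hr. In challenge mice they were 63.0, 66.0 and 70.8 CPM at 0 hr, 43.9, 51.8, 56.1 and 60.7 at 1 hr, 58.0, 65.4, 67.4 and 71.5 at 2 hr, and 60.4, 67.6, 70.0 and 92.0 at 4 hr. Within each experience the lowest group mean was at 1 hr and the highest at 4 hr. The acute mice at 2 hr and the challenge mice at 1 hr all lay below the 0 hr mice of their experience, and the other groups overlapped theirs. The log2 fold changes against 0 hr were −0.24 (SE 0.131), −0.25 (SE 0.130) and 0.31 (SE 0.126) at 1, 2 and 4 hr after acute cocaine, −0.33 (SE 0.128), −0.12 (SE 0.120) and 0.15 (SE 0.125) after repeated, and −0.32 (SE 0.138), 0.00 (SE 0.135) and 0.15 (SE 0.133) after challenge. The joint test gave an adjusted p of 0.00041 for Cacnb2 over all experiences and 0.00359 for acute cocaine, whereas none of these single differences from 0 hr passed after adjustment. The acute call was lost without the 4 hr mouse of 118 CPM (log2 fold change 0.20 at 4 hr, adjusted p = 0.078) and with only the 8 acute libraries of a second run (0.20, adjusted p = 1.0). Elsewhere, the log2 fold changes of Cacnb2 at 1 hr after acute, repeated and challenge cocaine were −0.18, −0.27 and −0.32 for the NAc, for the LCtx −0.05, 0.36 and −0.11, and 0.08, −0.11 and −0.19 in the Amy, and 0.17, 0.15 and 0.12 in the LH, none past the test. Genes on the other strand overlap Cacnb2 exons (Gm10848, Gm10849 and Gm13269), and whether counting used strand is not given in the sources used here.

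**Figure D3:**
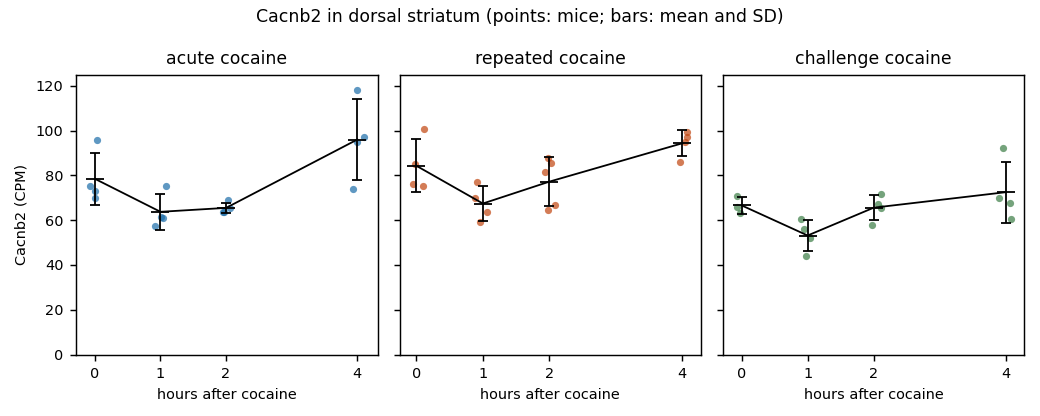
Cacnb2 in the DS (CPM) against hours after acute, repeated and challenge cocaine, with a point per mouse and bars for mean and SD. Means fell from 78.4 to 63.7 CPM, 84.3 to 67.4 CPM and 66.6 to 53.1 CPM between 0 and 1 hr, differences that did not pass the test singly, and stood at 96.0, 94.3 and 72.5 CPM at 4 hr.

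Cacnb2 spans 14603088 to 14987908 on chromosome 2, with more than 1 annotated start. Both RefSeq windows (GRCm38.p6, plus strand) are shown because this is the gene with a time course, and capitals mark a TGACG core, the part of a CRE, at 117 bases before the second start.
Cacnb2, chr2:14604056-14604355: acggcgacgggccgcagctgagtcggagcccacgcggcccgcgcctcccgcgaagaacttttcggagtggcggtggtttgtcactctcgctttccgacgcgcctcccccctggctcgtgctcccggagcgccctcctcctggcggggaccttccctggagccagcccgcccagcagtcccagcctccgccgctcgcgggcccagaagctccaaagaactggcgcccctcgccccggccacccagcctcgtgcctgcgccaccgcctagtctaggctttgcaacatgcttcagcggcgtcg
Cacnb2, chr2:14823842-14824141: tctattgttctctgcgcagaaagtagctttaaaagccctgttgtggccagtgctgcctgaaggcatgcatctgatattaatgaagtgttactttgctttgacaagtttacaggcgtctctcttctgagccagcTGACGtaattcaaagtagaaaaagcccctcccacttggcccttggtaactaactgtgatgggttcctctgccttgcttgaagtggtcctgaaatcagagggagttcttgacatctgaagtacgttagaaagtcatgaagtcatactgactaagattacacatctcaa
The first window held none of the 5 motifs. Of the 37 windows of channel genes, 5 held the TGACG core, 8 an EGR match, 1 an AP-1 match and 2 a TATA box, beside the shares of all windows given above.

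As a group the channel genes moved little with time in the DS. After acute cocaine the median log2 fold change over the 35 genes was 0.05 at 1 hr, 0.14 at 2 hr and 0.08 at 4 hr, against −0.01 at each time over all genes, and 23, 28 and 22 of the 35 values were above 0. After repeated cocaine the medians were −0.02, 0.00 and 0.03, and after challenge −0.01, 0.03 and 0.01, each against medians between −0.01 and 0.00 over all genes. The naive libraries are shared by all 3 acute contrasts. Among 23 listed partners of these channels, 20 could be tested in the DS, and 2 were called (1.99% of all genes), both higher, the ubiquitin ligase gene Nedd4l (0.28) and Rem2 (0.51), a small GTPase that binds β subunits.

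The experiences were compared in the DS within 1 sequencing run that held 8 mice of each, 2 per time, averaging over time (adjusted p under 0.05 and a fold over 1.2). Library totals in this run moved with experience, at 2096787 to 2704694 counts in acute, 1689860 to 2170571 in repeated and 1269391 to 1805910 in challenge mice, and their part in the results was not tested. Repeated against acute called 6 of 35 channel genes, 3 higher and 3 lower (12.7% of all genes), and challenge against acute 8, 3 higher and 5 lower (16.7% of all genes). Challenge against repeated called 1 (3.68% of all genes). The channel genes' shares lay near those of all genes, and their medians were −0.04, −0.10 and −0.08 on the log2 scale against 0.00, −0.01 and −0.01 over all genes. The comparisons with acute mice share the acute libraries. The directions below hold for this run. In other runs of the same mice, described further on, 4 of the 6 and 5 of the 8 values had the opposite sign.

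Among calcium channel pores, the L-type Cacna1c had lowest, median and highest levels of 64.0, 83.0 and 98.1 CPM in acute, 45.6, 62.0 and 76.2 in repeated and 22.8, 55.5 and 64.8 in challenge mice. For Cacna1c, 7 of 8 challenge mice lay below the lowest acute mouse, and the repeated range overlapped both. Its log2 fold change was −0.34 (SE 0.125, adjusted p = 0.0499) in repeated and −0.64 (SE 0.130, adjusted p = 0.00019) in challenge against acute mice, and the first of these calls was lost in 13 of 24 fits that left out 1 library, with RLE size factors (adjusted p = 0.0539) and by DESeq2 (adjusted p = 0.0987). R-type Cacna1e had 156, 167 and 208 CPM in acute and 190, 206 and 234 CPM in repeated mice, a rise of 0.28 (SE 0.0675, adjusted p = 0.00202) that fell under the fold of 1.2 without acute DS 2 hr replicate 4 (0.26) or repeated DS 2 hr replicate 5 (0.24). T-type Cacna1h fell by 0.33 on the log2 scale in challenge mice (SE 0.0988, adjusted p = 0.0116), from 71.5, 79.5 and 97.0 CPM to 48.7, 66.7 and 78.0 CPM, and lost its call without acute DS 4 hr replicate 1 (−0.30, adjusted p = 0.0516). P/Q-type Cacna1a had 71.0, 92.8 and 109 CPM in acute and 30.8, 76.6 and 105 CPM in challenge mice, ranges that overlapped broadly (−0.31, SE 0.109, adjusted p = 0.0381, against 0.55 in other runs). Without challenge DS 1 hr replicate 2, the library at 30.8 CPM, Cacna1a was at −0.20 with an adjusted p of 0.20, and it lost its call in 9 of 24 such fits and by DESeq2 (adjusted p = 0.072).

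Auxiliary and TARP genes moved both ways. Cacnb4 had 345, 375 and 418 CPM in acute and 266, 313 and 339 CPM in repeated mice (log2 fold change −0.29, SE 0.0565, adjusted p = 0.000156), but it stood at 0.28 in other runs of the same mice. Its groups did not overlap in this run, but the share of all genes without overlap is not given here. Cacnb1 had 145, 173 and 207 CPM in acute and 192, 219 and 246 CPM in challenge mice (0.35, SE 0.0749, adjusted p = 0.000369, against −0.46 in other runs), and Cacnb2 79.2, 100 and 122 CPM against 52.8, 78.3 and 93.7 CPM (−0.37, SE 0.104, adjusted p = 0.00656). The TARP gene Cacng2 had 131, 147 and 166 CPM in acute and 96.6, 126 and 139 CPM in repeated mice (−0.29, SE 0.0869, adjusted p = 0.0149, against 0.58 in other runs), a call lost without acute DS 2 hr replicate 4 (adjusted p = 0.0666), repeated DS 0 hr replicate 4 (0.0521) or 2 hr replicate 5 (0.051), or without repeated DS 1 hr replicate 4 (−0.26, under the fold of 1.2). Cacng7, another γ gene, had 21.2, 26.3 and 34.6 CPM in acute, 33.9, 38.9 and 65.3 in repeated and 26.4, 45.0 and 49.8 in challenge mice. Only the highest acute values of Cacng7 reached the repeated range, and it rose by 0.66 (SE 0.144, adjusted p = 0.000767) after repeated cocaine and by 0.64 (SE 0.147, adjusted p = 0.000931) after challenge in this run, whereas other runs of the same mice gave −1.02 and −0.94.

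Of the HCN and sodium channel genes, Hcn2 had 52.4, 67.3 and 74.7 CPM in acute, 72.4, 86.1 and 102 in repeated and 54.3, 84.6 and 94.7 in challenge mice. Hcn2 rose by 0.43 (SE 0.098, adjusted p = 0.00105) after repeated cocaine and by 0.30 (SE 0.101, adjusted p = 0.0296) after challenge, and the latter call was lost in 11 of 24 fits without 1 library. Other runs of the same mice gave −0.45 and −0.70 for Hcn2. Scn8a had 294, 311 and 346 CPM in acute, 291, 310 and 347 in repeated and 207, 259 and 316 in challenge mice. Scn8a fell by 0.28 in challenge mice against acute (SE 0.059, adjusted p = 0.000326, against 0.13 in other runs) and against repeated mice (SE 0.0597, adjusted p = 0.00189). Each of these calls fell under the fold of 1.2 in 3 of 24 fits, both without challenge DS 2 hr replicate 1 or 4 hr replicate 2, the first also without acute DS 4 hr replicate 1 and the other without repeated DS 2 hr replicate 5 (−0.24 to −0.26). At 0 hr alone, with 2 mice per group, Scn8a was the only channel gene called between challenge and acute mice (−0.49, adjusted p = 0.0118, 3.48% of all genes). Between repeated and acute mice 0 were called (1.86% of all genes), with 7 at an unadjusted p under 0.05, beside 12.3% of all genes. The 0 hr call of Scn8a was lost without any 1 of the 4 libraries compared (adjusted p = 0.054 to 0.179).

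**Figure D4:**
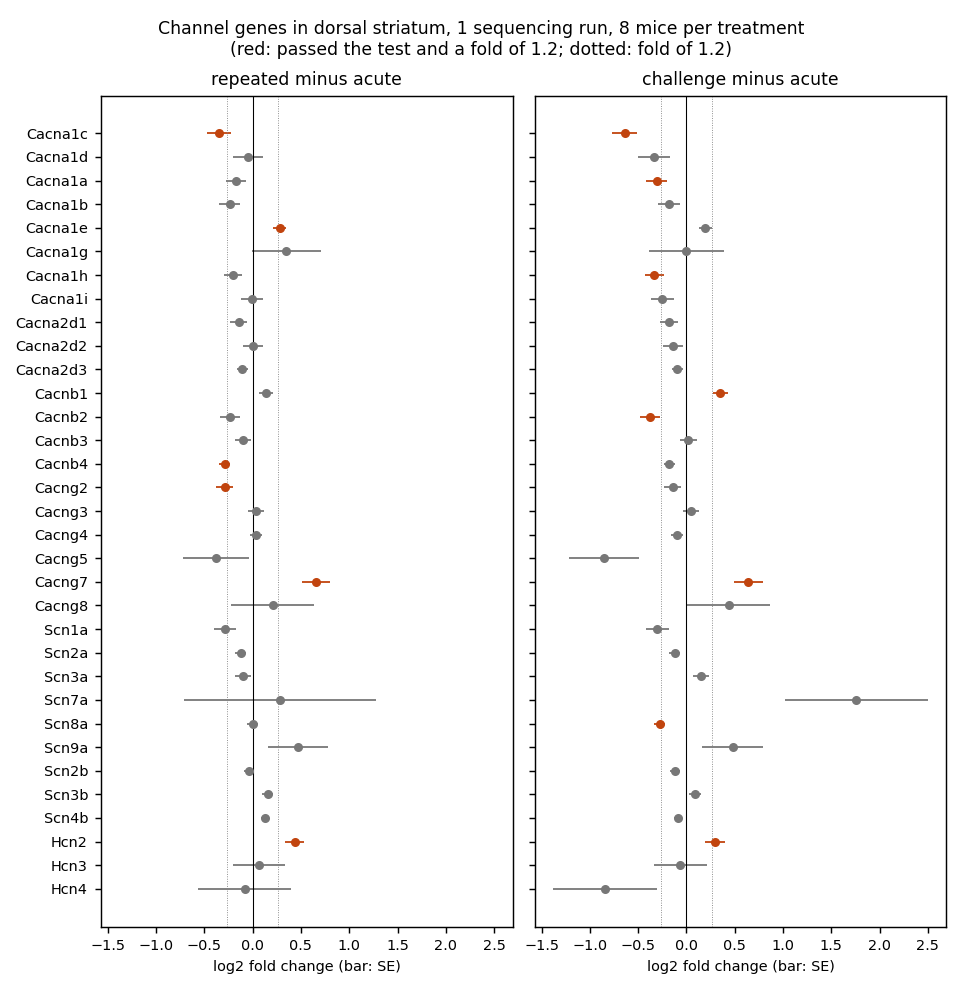
Log2 fold change (points, bars for SE) of channel genes in the DS within 1 run, repeated minus acute (left) and challenge minus acute (right), 8 mice per experience. Red genes passed the test and a fold of 1.2 (dotted lines), 6 on the left and 8 on the right, with Cacng7 and Hcn2 higher and Cacna1c lower in both. In other runs of the same mice Cacng7 (−1.02 and −0.94) and Hcn2 (−0.45 and −0.70) had the opposite sign.

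Other transcripts of the DS moved with these comparisons in the same libraries. All 5 oligodendrocyte markers were lower in challenge than in acute mice (median log2 fold change −0.53, summed level 6333 to 9165 CPM against 10560 to 12061 CPM), and 3 of 5 were lower than in repeated mice. Their difference between repeated and acute mice is not given here. Both ependymal markers were higher than in acute mice, by a median of 1.68 in repeated and 1.98 in challenge mice, and the 2 blood markers tested were higher in challenge mice (median 0.53). Of 9 SPN markers, 1 was higher and 1 lower in repeated and 1 higher and 2 lower in challenge mice, with summed medians of 14478, 14499 and 14412 CPM in acute, repeated and challenge mice. The part of these transcripts in the channel results was not tested. Of 19 channel partners tested, 6 were called after repeated cocaine (12.7% of all genes), all lower, among them Fgf13 (−0.41), Fgf14 (−0.33) and Nalcn (−0.27), which encode sodium channel binding proteins and the sodium leak channel, and the HCN trafficking gene Pex5l (−0.43). After challenge 7 were called (16.7% of all genes), 5 lower and 2 higher (Fgf11 0.52, Unc79 0.37). The partners were not compared in the other runs of these mice.

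The same 24 mice had also been sequenced in another run, acute mice in 1 and repeated and challenge mice in a second, so that run and experience cannot be told apart there. In those libraries 19 of the channel genes were called in each comparison with acute mice (44.6% and 45.0% of all genes). Of these, 4 and 6 were also called in the single run, but all 4 after repeated cocaine and 4 of the 6 after challenge had the opposite sign. Repeated against acute reversed for Cacnb4 (0.28), Cacng2 (0.58), Cacng7 (−1.02) and Hcn2 (−0.45), and challenge against acute for Cacna1a (0.55), Cacnb1 (−0.46), Cacng7 (−0.94), Hcn2 (−0.70) and Scn8a (0.13). Cacna1c (−0.31) and Cacna1h (−0.83) after challenge kept their call and direction. After repeated cocaine Cacna1c (−0.07, adjusted p = 0.362) and Cacna1e (0.25, adjusted p = 0.00019), and after challenge Cacnb2 (−0.22, adjusted p = 0.00794), had the same sign but lost their calls, the latter 2 by the fold of 1.2.

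Levels of these genes differed between runs of the same mice, where library preparation and sequencing cannot be told apart. With each of the 24 mice compared with itself, 14 of 34 channel genes differed between runs, 12 higher and 2 lower in the shared run (21.8% of all genes), with a median of 0.12 against −0.02 over all genes. Scn3a (0.67), Scn8a (0.55), Cacng4 (0.54) and Scn2a (0.47) were higher in 24 of 24 mice. Cacng2 (0.65), Cacna1a (0.50), Scn1a (0.48), Cacnb4 (0.45), Cacna2d2 (0.40), Cacna2d1 (0.37), Scn9a (0.37) and Cacna1b (0.34) were higher in 18 to 22 of 24, and Hcn2 (−0.41) and Cacng8 (−0.44) were lower.

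Challenge and repeated mice shared a second run, with 15 and 17 mice, which was compared after the data had been seen. There 10 of 35 channel genes were called, 1 higher and 9 lower after challenge (11.2% of all genes, median −0.12 against 0.00). Scn4b had lowest, median and highest levels of 861, 1018 and 1259 CPM in challenge and 1195, 1456 and 1568 CPM in repeated mice, ranges that met only at their ends, and it fell by 0.47 (SE 0.0423, adjusted p = 1.24e-11). Cacna1h (−0.41), Cacna1i (−0.37), Cacna2d2 (−0.37), Scn1a (−0.34), Cacna1e (−0.33), Cacna1b (−0.32), Cacnb2 (−0.31) and Cacng4 (−0.26) fell as well, and Cacnb1 rose (0.37, 171 to 222.5 CPM against 116 to 185 CPM). Scn8a, the gene called in the smaller run, was at −0.12 with an adjusted p of 0.0281, under the fold of 1.2.

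The 16 of these mice that were sequenced in both runs gave 8 calls of 35 in the larger run (11.1% of all genes) and 1 in the smaller, with 0 genes in common. In them Scn4b fell by 0.42 in the larger run, and in the smaller by 0.22 (adjusted p = 0.000545), short of the fold of 1.2. All 5 oligodendrocyte markers were lower in challenge mice in the larger run too (median −0.47), and 3 of 5 cortical excitatory, both ependymal, 2 of 3 choroid plexus and 2 of 3 blood markers were higher (blood median 0.54, summed 406.2 to 971.5 CPM against 228.6 to 493.3 CPM), while 1 of 9 SPN markers was lower (Pde10a, −0.31). The 2 repeated cohorts, 8 and 9 DS mice in that run, offered a comparison without a difference in experience. It called 0 of 34 channel genes at the fold of 1.2, where 8.06% of all genes were called. An unadjusted p under 0.05 was reached by 11 channel genes, and below that fold 5 passed an adjusted p of 0.05. The shares of all genes at those limits are not given here, so nothing is read from these counts. Cacna1e was higher by 0.25 (SE 0.0509, adjusted p = 0.000366) and Cacna1a by 0.25 (adjusted p = 0.0365) in the cohort that gave all 8 repeated mice of the shared run, and Cacnb2 (−0.20, adjusted p = 0.0442), Scn2b (−0.20, adjusted p = 0.0049) and Scn3a (−0.20, adjusted p = 0.0472) were lower. For Cacna1e this difference between cohorts of 1 experience was near its rise from acute to repeated mice (0.28). Scn4b averaged 1459 and 1389 CPM (log2 fold change 0.02).

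Acute and repeated mice of the Amy, and likewise of the LH, were sequenced together, 8 each. Repeated against acute called 8 of 36 channel genes in the Amy (8.92% of all genes, median 0.04 against −0.01) and 5 of 36 in the LH (4.77% of all genes, median 0.01 against 0.00). In the Amy, Scn4b had 15.9, 28.8 and 37.4 CPM in acute and 8.21, 12.7 and 18.9 CPM in repeated mice, and fell by 1.04 (SE 0.150, adjusted p = 3.82e-06). Cacna2d1 (86.1, 97.5 and 99.3 against 64.5, 76.1 and 86.0 CPM) fell by 0.28 and Cacna2d2 (36.8, 48.1 and 60.7 against 28.3, 40.7 and 47.8 CPM) by 0.33. Cacna2d1 did not overlap between groups, and neither did Cacnb3, which rose by 0.26, from 149, 154 and 165 to 168, 183 and 198 CPM. The share of all genes without overlap is not given here, so nothing is read from this.

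Other Amy calls were rises. Cacng2 rose by 0.48 (36.6, 45.1 and 54.2 to 44.2, 62.7 and 73.3 CPM), Cacna1g by 0.40 (59.7, 74.2 and 99.3 to 83.4, 96.2 and 109 CPM) and Hcn2 by 0.38 (71.7, 91.1 and 94.0 to 91.9, 112 and 122 CPM). Adjusted p-values of the calls described ran from 3.82e-06 to 0.00795 (Cacna2d2), and Cacna2d2 lost its call without acute Amy 4 hr replicate 1 (adjusted p = 0.0502). Cacnb3 lay so near the fold of 1.2 that its call was lost under all 4 other settings tried (0.26) and in 8 of 16 fits that left out 1 library, and that of Cacna2d1 in 4 of 16. SPN markers moved with Scn4b in the Amy, with 8 of 9 lower in repeated mice (median −0.65, summed 863 to 1447 CPM against 1377 to 1992 CPM), and 3 of 4 cortical excitatory markers were higher (median 0.31). Their part in the channel results was not tested.

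In the LH, Cacng2 rose by 0.41 (44.1, 60.9 and 71.2 to 71.6, 78.3 and 85.0 CPM) and Cacng7 by 0.39 (35.8, 51.5 and 61.5 to 50.5, 62.5 and 85.7 CPM). Scn4b fell by 0.37 (42.7, 45.7 and 53.9 to 30.7, 36.1 and 41.6 CPM), Cacna2d1 by 0.27 (65.5, 73.2 and 91.0 to 53.3, 60.4 and 65.9 CPM) and Cacnb4 by 0.26 (79.0, 86.4 and 89.3 to 57.6, 72.3 and 75.7 CPM). Cacng2, Scn4b and Cacnb4 did not overlap between groups, and Cacna2d1 and Cacng7 did, but the share of all genes without overlap is not given here. Adjusted p-values of these calls ran from 2.73e-05 to 0.00471. Near the fold of 1.2, Cacna2d1 lost its call in 8 of 16 fits that left out 1 library, and Cacnb4 in 7 of 16 and under 3 of 4 other settings (−0.26). Of the LH markers, 2 of 9 for SPNs were lower (summed 474 to 715 CPM against 609 to 770 CPM), and 2 of 5 cortical excitatory markers were lower.

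**Figure D5:**
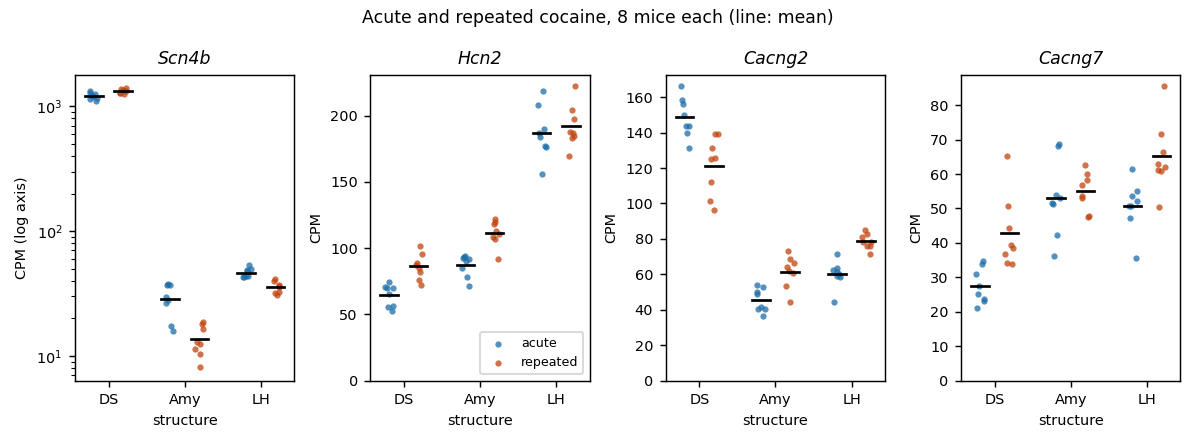
CPM per mouse after acute (blue) and repeated (red) cocaine in the DS, Amy and LH, 8 mice per group, with a line for the mean (Scn4b on a log axis). Scn4b was lower after repeated cocaine in the Amy (28.6 to 13.6 CPM) and LH (46.6 to 35.7 CPM), and Cacng2 was higher in the Amy and LH and lower in the DS in the run plotted, but higher in the DS (log2 fold change 0.58) in other runs of the same mice.

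Whether the repeated to acute difference itself varied between the DS (shared run), Amy and LH was tested jointly (added after the data had been seen). It varied for 5 of 36 channel genes (9.52% of all genes), by edgeR's adjusted p. For Scn4b the difference was 0.13 in the DS, and the Amy difference was lower than that of the DS by 1.17 on the log2 scale (adjusted p = 1.38e-09). Cacng2 was higher in the Amy than in the DS by 0.79 (adjusted p = 3.17e-07) and Cacnb3 by 0.38 (adjusted p = 0.00144), whereas Cacng7 had a smaller rise in the Amy (difference −0.52, adjusted p = 0.0449) and Hcn2 in the LH (difference −0.35 from the DS, adjusted p = 0.007). All 16 animals of the Amy and LH were the same, and they included the 8 repeated DS animals, which this test did not take into account. Between the Amy and LH alone, only Scn4b differed (−0.69, adjusted p = 0.00706, 0.598% of all genes). With the animal as a factor Scn4b was at −0.66 (adjusted p = 0.0131), and Hcn2 passed as well, with a rise larger in the Amy by 0.33 (adjusted p = 0.0116). The DS values of Cacng2, Cacng7 and Hcn2 are those that reversed in the other runs of the same mice, where Cacng2 was at 0.58, Cacng7 at −1.02 and Hcn2 at −0.45, and their contrasts with the Amy and LH were not tested there.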

How the data were processed

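The deposited values were raw counts per gene. Per the study's methods, the authors removed duplicate reads by molecular identifier, trimmed poly(A), mapped reads by STAR (GRCm38) and assigned them to genes by HTSeq, without normalization. The authors down-sampled the deepest libraries. Tool versions and the strand of counting are not given in the sources used here. From these counts, CPM used library totals, and 3′ counts were not compared between genes. Group differences were tested with edgeR 4.0.16 (R 4.3.3) by its quasi-likelihood test, after filterByExpr and TMM scaling, with Benjamini-Hochberg adjustment over all genes tested, and the scripts were tested on simulated data. The fold was over 1.2 for time and experience and log2 1.0 for structure, at an adjusted p of 0.05. Tests of the joint and between-structure effects used adjusted p alone. Alternatives were RLE size factors, DESeq2 1.42.0, no filter, other runs, a replicate block, the animal as a factor and libraries left out. Values by sample were given for genes called with time or experience and, for each structure, the 2 genes whose mean log2 level there most exceeded the next structure. Other genes are described by subfamily. Members, markers, partners and tests were chosen with earlier results of these data known. Replicates of a group were separate mice, but structures share animals, which the tests between structures took as independent. All 153 replicate pairs differed by more than counting noise (lowest chi-square per degree of freedom 1.56). Same-numbered mice of different groups did not deviate together (mean correlations from −0.003 to 0.025), so replicate numbers were not taken as pairs. Challenge libraries of the same animal in different structures correlated at a mean of 0.046 (6 of 40 pairs over 0.1), against −0.004 between animals. Library totals ran from 1193306 to 10367769 counts, and 0 columns of other samples were left out. Coordinates are GRCm38 (GENCODE M21). Results of some of the channel genes are not reported here, though counts of calls include them.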

Additional observations from a re-analysis of the deposited data

Results flagged for a closer look

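Dixon's criterion was applied to 70 groups, the run-matched groups of 8 mice and the DS time groups of Cacnb2 (4 or 5 mice). In 3 of the 70, all of 8 mice, it flagged a library far from the others, which chance does in about 1 of 20 groups. Cacna1e was at 139.3 CPM in challenge DS 0 hr replicate 1, with the next mouse at 184.5 CPM. Cacna2d1 was at 91.03 CPM in acute LH 4 hr replicate 1, with the next at 76.86 CPM, and Cacng2 at 44.09 CPM in acute LH 2 hr replicate 1, with the next at 58.73 CPM.

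The repeated to acute difference varied between structures by a test of the difference itself. On the log2 scale the Amy exceeded the DS by 0.38 for Cacnb3 (adjusted p = 0.00144) and by 0.79 for Cacng2 (adjusted p = 3.17e-07), and stood at −0.52 relative to the DS for Cacng7 (adjusted p = 0.0449) and −1.17 for Scn4b (adjusted p = 1.38e-09). The LH stood at −0.35 relative to the DS for Hcn2 (adjusted p = 0.007), and the Amy at −0.69 relative to the LH for Scn4b (adjusted p = 0.00706). These p-values are edgeR's. In other runs of the same DS mice the repeated to acute difference was 0.58 for Cacng2, −1.02 for Cacng7 and −0.45 for Hcn2, opposite to the DS values used here, and the contrasts of these genes were not tested with those runs. The DS came from another run than the Amy and LH, which cannot be told apart from structure.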

How the results depend on the processing

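Of 109 counts of called channel genes under other settings, 93 stayed within 1.5 times the reported count. Without a filter on low counts, calls with time were 3 (LCtx), 3 (NAc), 2 (DS) and 3 (DS after acute cocaine). With only the shared DS run, acute DS calls fell to 0. With a replicate block, which rests on shared numbers only, calls in the DS run were 2 (repeated against acute), 1 (challenge against acute), 0 (challenge against repeated) and 0 (challenge against acute at 0 hr), and Cacna1a turned to 0.044. With the other 2 DS runs in place of the shared one, calls were 20 and 22 against acute mice, and 19 and 19 in the same 24 mice. The larger run of challenge and repeated mice gave 10 calls between them, and DESeq2 1 call at 0 hr for repeated against acute. With the animal as a factor, chosen after seeing the data, the repeated to acute difference varied between the Amy and LH for 2 genes in place of 1 (Scn4b and Hcn2). The cause of these changes was not tested.

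Signs turned in those other runs for repeated against acute in Cacnb4 (0.36, 0.28 in the same mice), Cacng2 (0.63, 0.58), Cacng7 (−0.95, −1.02) and Hcn2 (−0.46, −0.45), and for challenge against acute in Cacna1a (0.53, 0.55), Cacnb1 (−0.47, −0.46), Cacng7 (−0.88, −0.94), Hcn2 (−0.62, −0.70) and Scn8a (0.14, 0.13).

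With 1 library or replicate number left out, counts ranged from 0 to 2 for LCtx time, 0 to 2 for DS acute time (2 without acute 2 hr replicate 1), 3 to 7 for repeated against acute in the DS (3 without acute 2 hr replicate 4), 4 to 9 for challenge against acute (4 without acute 4 hr replicate 1, 5 without challenge 4 hr replicate 2), 0 to 4 for challenge against repeated (0 without challenge 2 hr replicate 1 or 4 hr replicate 2), 0 to 1 for either 0 hr comparison, and 3 to 5 in the LH (3 without acute 0 hr replicate 1, acute 2 hr replicate 2 or repeated 2 hr replicate 1). Of 954 single-gene values, 868 kept their call and direction, 86 lost the call and 0 turned. In the LH, with 1 or 2 mice per time, leaving out a replicate number left no residual degrees of freedom for time, so single libraries were left out. Scn7a and Cacng8 had few counts in several structures, and small differences in them were not detectable at this depth.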
